A study of Mus musculus with 6 samples.

Results

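Vascular smooth muscle cells of the mouse sciatic nerve were picked out of single-cell RNA libraries by the genes they contain. A nerve barcode was a member when at least 3 of the 4 genes Acta2, Myh11, Tagln and Cnn1 had a UMI (a unique molecular identifier, 1 counted RNA molecule) and Myh11 was among them. It also had to lack Kcnj8 and Abcc9, the 2 subunits of the potassium channel that marks pericytes, and Sox10, Pdgfra, Cdh5 and Csf1r, which mark Schwann cells, fibroblasts, endothelium and macrophages. Of 50973 nerve barcodes with at least 500 UMIs, at least 300 genes and at most 20% mitochondrial counts, 481 passed. At postnatal day 0 (P0) 6 of 9927 barcodes passed. The library of P7 held 58 of 11222, that of P14 128 of 9038, that of P28 172 of 13597 and that of P60 117 of 7189.

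The nerves came from C57BL/6 mice, and each library pooled animals of both sexes per the labels, namely 22, 21, 18, 15 and 13 animals in the order of ages. No mutant or treated group was involved, and the study as a whole asked how axons come to be wrapped by glia while nerves mature. The labels describe every nerve library as Schwann cell or glia, although the nerves were dissociated whole with collagenase and papain. There was 1 library per age, so nothing is known of the spread between animals of 1 age, and each pool is 1 sample.

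Smooth muscle cells wrap arteries, arterioles and, more thinly, venules. They contract when calcium activates myosin light chain kinase, and relax when nitric oxide and cyclic nucleotides lower calcium or restore the phosphatase. Pericytes sit on capillaries under the same basement membrane, share the receptor Pdgfrb and the receptor Notch3 with smooth muscle, and carry the Kcnj8 and Abcc9 channel. Peripheral nerves hold both cell types, in the vessels that run through the outer sheath and between the fibres.

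The libraries at P28 and P60 went against their labelled sex makeup. Xist, transcribed from the silenced X chromosome of female cells, had a UMI in 37.6%, 73.3%, 44.5%, 0.228% and 0.209% of kept barcodes from P0 to P60, although the labels give 6 females at P28 and 8 at P60. In the smooth muscle cells the shares were 16.7%, 93.1%, 46.1%, 0% and 0% in the same order of ages. The Y-linked genes Ddx3y, Uty, Eif2s3y and Kdm5d together had a UMI in 23.4% to 66.2% of kept barcodes. Age and sex makeup therefore cannot be told apart between P14 and P60, nor between P7 and the other ages. Values over cells without a Xist UMI (4 of 58 smooth muscle cells at P7, 69 of 128 at P14, all cells at P28 and P60) are given for some of the genes compared between ages.

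Depth differed little between the classes except at P28 and P60. The median smooth muscle cell had 8640, 5234, 6091, 4648 and 8264 UMIs from P0 to P60, and the summed counts behind each level ranged from 40544 UMIs at P0 to 898806 at P60. Pericytes had medians of 9002, 4660, 6094, 3319 and 4708 UMIs. Libraries shared 16 to 40 barcodes per pair, at most 0.382% of a library. The mitochondrial share of the median smooth muscle cell was 3.08%, 2.98%, 3.77%, 4.59% and 7.31% from P0 to P60.

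The label was checked on the 4 chosen genes and on markers of other cells. Acta2, smooth muscle actin, was at 11910, 15230, 12570, 9416 and 16880 CPM from P0 to P60 (CPM are the UMIs of a gene per 1000000 UMIs of the summed cells). Myh11, the smooth muscle myosin heavy chain, was at 1357, 3874, 6693, 5359 and 6580 CPM. These genes chose the cells, so their levels are a description. Cnn1, calponin, was the least often detected of the 4, in 33.3%, 55.2%, 43.0%, 11.0% and 35.9% of smooth muscle cells from P0 to P60. After thinning to 2000 UMIs the shares were 10.2%, 46.1%, 24.98%, 8.07% and 22.3%, against 0.213% to 0.458% of barcodes with Sox10. The other gate genes were more frequent in thinned barcodes with Sox10: Tagln in 2.74% to 12.5%, Acta2 in 1.1% to 3.43% and Myh11 in 0.322% to 2.13%. The 12 skeletal muscle markers summed to 148, 330.5, 505.9, 994.7 and 1162 CPM in smooth muscle cells from P0 to P60. Of this, desmin (Des) made up 148, 255.2, 444.7, 977.9 and 1148 CPM. Tnni2, Myh1, Myh4, Myod1 and Pax7 had no UMI in smooth muscle cells of any library.

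Markers of other cell types had counts in these cells, and the Schwann markers most of all at P7. Whether these counts came from other cells or were made by the cells themselves was not tested. The 12 Schwann markers summed to 1085, 8547, 375.5, 827.7 and 153.5 CPM from P0 to P60, and to 1446, 4223, 607.6, 825.7 and 492.9 CPM in pericytes. The 12 fibroblast markers summed to 912.6, 2176, 796.7, 2222 and 1796 CPM in smooth muscle cells and to 1258, 4515, 1993, 5808 and 2219 CPM in pericytes. The 12 endothelial markers summed to between 172.7 and 421.2 CPM in smooth muscle, mostly Esam, and the 12 macrophage markers to at most 114.6 CPM. The part these counts play in the results below was not tested.

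Smooth muscle cells were few at birth and made up more of the mural cells at later ages. Mural cells here are the 481 smooth muscle cells, 605 pericytes (Kcnj8 or Abcc9 with Rgs5, fewer muscle genes, and none of the 4 excluded genes) and 373 cells that carried the muscle genes together with Kcnj8 or Abcc9. Smooth muscle cells were 3.87% of mural cells at P0, with a 95% Clopper-Pearson interval of 1.43% to 8.24%. Their share was 29.9% (23.6% to 36.9%) for P7, 27.9% (23.8% to 32.2%) for P14, 50.9% (45.4% to 56.3%) for P28 and 37.4% (32.0% to 43.0%) for P60. The interval at P0 lies below all others and that at P28 above all others. This order depends on the gate. With all 4 muscle genes required of smooth muscle cells alone, the share at P28 was 10.3%, below the 19.1%, 14.2% and 17.6% of P7, P14 and P60. Members without all 4 then also left the mural cells, which fell from 338 to 185 at P28. With the channel genes allowed, the intervals of P28 (66.5% to 76.4%) and P60 (65.2% to 75.6%) overlapped. There is no test, and dissociation can change which cells are recovered.

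**Figure D1:**
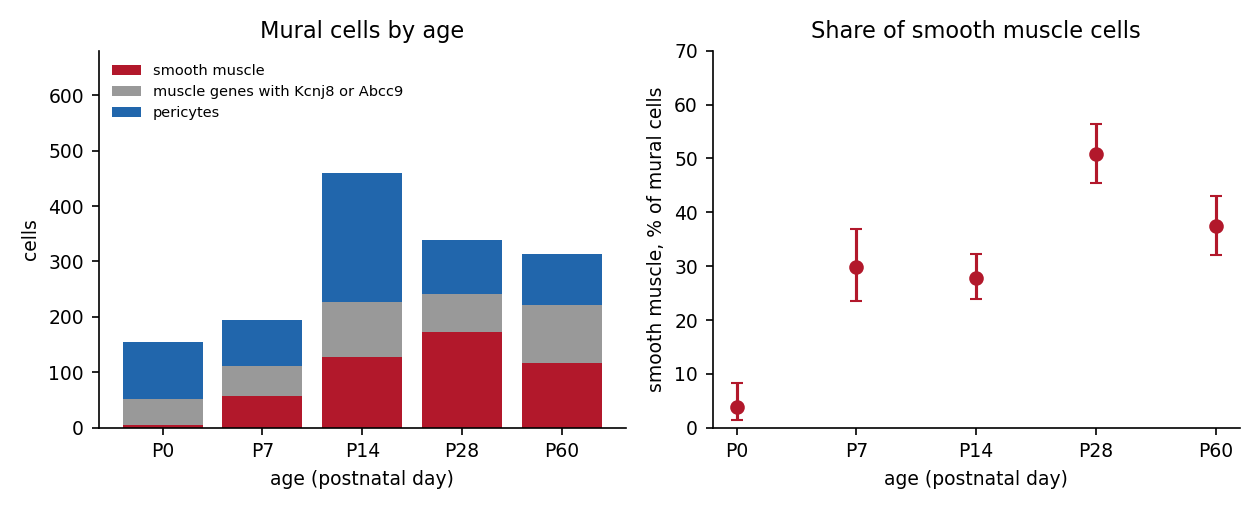
Left, cells per library by age, stacked as smooth muscle cells (red), cells with the muscle genes and Kcnj8 or Abcc9 (grey) and pericytes (blue). Right, smooth muscle cells as a percentage of all 3 kinds, with exact 95% intervals that cover counting error only; P0 stands at 3.87% and P28 at 50.9%.

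The share at P0 turned on the channel genes. Of cells with the muscle genes, 88.5% at P0 also had a UMI of Kcnj8 or Abcc9, and 48.2%, 43.6%, 28.9% and 47.1% did at P7, P14, P28 and P60. With each cell thinned to 2000 UMIs the shares were 58.1%, 34.6%, 35.5%, 22.2% and 39.0%. Barcodes with Sox10, which should lack the channel, had a UMI of either gene in 1.15% to 4.45% of cases, and in 0.633% to 3.16% after thinning. When the channel genes were allowed, smooth muscle cells made up 33.5%, 57.7%, 49.5%, 71.6% and 70.6% of mural cells from P0 to P60.

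Cells that carried both kinds of genes lay between the classes for Tpm2 and Steap4, but not for every gene. Tpm2, a tropomyosin of the contractile filament, was at 5995, 6017, 5858 and 7561 CPM in smooth muscle cells from P7 to P60, at 4558, 2514, 3162 and 2565 CPM in cells with both kinds, and at 528.9, 659.0, 655.6 and 504.8 CPM in pericytes. Steap4, a metalloreductase, ran the other way, at 16.4, 7.82, 25.2 and 42.3 CPM in smooth muscle, 215.1, 507.2, 298.3 and 709.8 CPM in cells with both and 573.2, 1046, 705.1 and 971.4 CPM in pericytes. For both genes the 3 classes kept the same order in every library. Eln, elastin, did not: after thinning it had a UMI in 42.7% and 38.3% of cells with both at P28 and P60. Smooth muscle cells had 28.4% and 25.4% there and pericytes 11.4% and 7.44%, while at P7 and P14 cells with both lay between. Just outside the gate were 21 cells with 2 of the 4 genes, Myh11 among them, 10 of them at P28, where their median depth was 1532 UMIs against 4648 UMIs in the members. Another 180 cells had the muscle genes without Kcnj8 and Abcc9 but also a UMI of Sox10, Pdgfra, Cdh5 or Csf1r. They numbered 1, 26, 70, 47 and 36 from P0 to P60 and are not among the mural cells. All 4 genes were present in 2, 32, 55, 19 and 42 members from P0 to P60.

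Members also differed among themselves within each library. The 35 genes of the contractile list took a median of 2.43%, 4.33%, 4.55%, 3.89% and 5.01% of a smooth muscle cell's UMIs from P0 to P60, and 1.02% to 1.29% of those of the median pericyte. Single cells at P60 ranged from 1.30% to 8.84%. Elastic fibre genes were spread most widely at P7, where the middle of the cells ran from 0.213% to 2.48% around a median of 1.17%, with a highest cell at 7.22%. At P60 the median was 0.084% and the highest cell 1.27%.

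**Figure D2:**
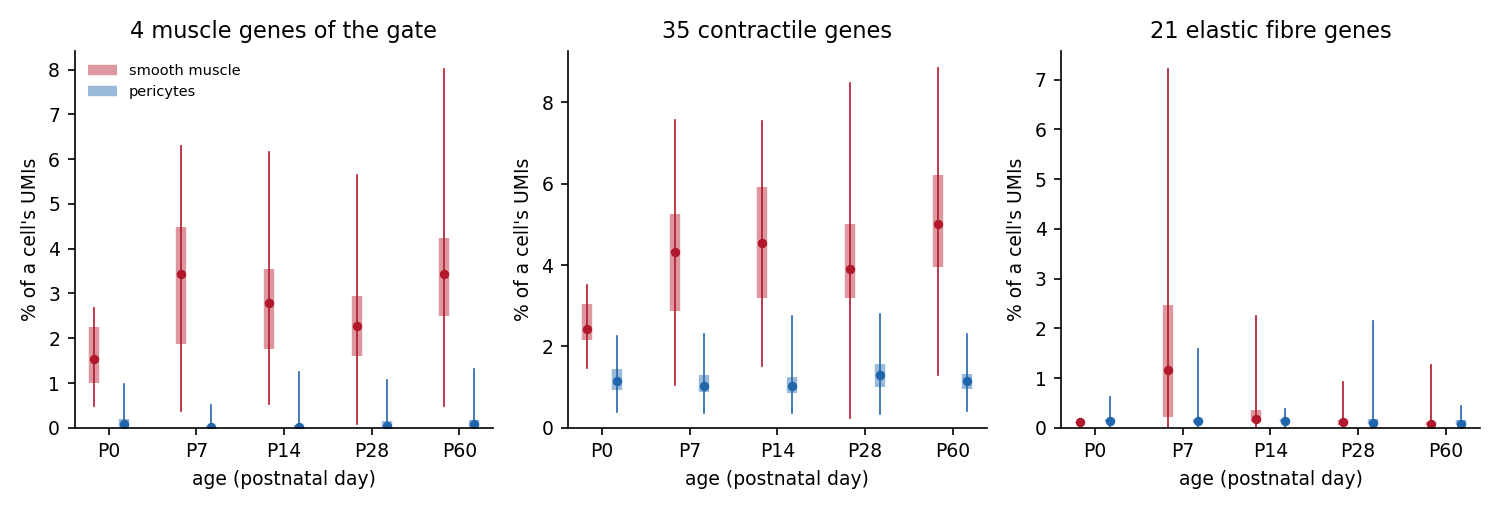
Percentage of each cell's UMIs held by the 4 muscle genes of the gate, by 35 contractile genes and by 21 elastic fibre genes, by age. Points are medians over cells, thick bars the middle of the distribution (the lower to the upper quartile) and thin lines the full range; smooth muscle cells (red) stand left of pericytes (blue), and the elastic share reaches 7.22% in a P7 cell.

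Smooth muscle cells were then set against the pericytes of the same libraries. Counts were summed per class and library and compared with edgeR's quasi-likelihood test, with the library as a block and Benjamini-Hochberg adjustment over 8829 genes. The 4 libraries from P7 to P60 entered, since P0 held only 6 smooth muscle cells. Higher in smooth muscle were 1025 genes (11.6% of those tested) and lower 854 (9.67%). The libraries are ages, so the test set the mean difference between the classes against its spread across ages. A call did not require the same direction in every library. The classes were gated on genes of the same cells, and the test speaks of the spread between libraries only. Calls fell to 680 higher without P14 and to 558 lower without P60. The TMM scaling raised all log2 fold changes by 0.23 relative to library totals, under which 728 genes were higher and 1442 lower. With cells that have no Xist UMI, which leaves 3 libraries, 948 were higher and 868 lower. With the P7 and P14 libraries alone, 494 were higher and 329 lower.

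The contractile apparatus was the list with the most members higher in smooth muscle. The cells were chosen by 4 contractile genes, which the list leaves out, and its direction is not independent of that choice. Of 35 tested members 31 were higher and 2 lower, with a median log2 fold change of 2.46 against -0.02 over all genes. Under library totals 30 were higher, and with P7 and P14 alone 29. Mustn1, a small muscle nuclear protein, stood at 1734, 1622, 1394 and 2267 CPM in smooth muscle cells from P7 to P60, against 143.3, 82.0, 71.1 and 221.4 CPM in pericytes. The ranges did not overlap, as for 6.99% of all tested genes with smooth muscle the higher class and 12.2% with pericytes the higher. The log2 fold change of Mustn1 was 4.09 ± 0.19 (SE; edgeR adjusted p = 7.04e-09). Tpm2, whose levels are given above, had a log2 fold change of 3.66 ± 0.17 (SE; edgeR adjusted p = 6.30e-09), higher in 4 of 4 libraries.

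Filament and scaffold genes took the same direction. Synm, synemin of the intermediate filaments, was at 199.6, 186.5, 225.8 and 387.2 CPM in smooth muscle, against 2.61, 4.87, 12.4 and 4.76 CPM in pericytes. Dstn, an actin-severing factor, was at 2480, 2335, 1976 and 2885 CPM, against 289.2, 325.3, 290.7 and 278.6 CPM. Neither gene's ranges overlapped, and the log2 fold changes were 5.53 ± 0.28 and 3.24 ± 0.16 (SE). Lmod1, leiomodin, which nucleates actin filaments, was higher by 4.09 ± 0.38, and Mylk, the myosin light chain kinase, by 2.46 ± 0.15.

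Desmin did not follow them. Des was at 255.2, 444.7, 977.9 and 1148 CPM in smooth muscle from P7 to P60, against 341.3, 390.7, 436.0 and 621.4 CPM in pericytes. Pericytes were the higher class at P7 and smooth muscle at the other ages, and the gene missed the threshold (edgeR adjusted p = 0.054). Tpm4 and Cnn3, a tropomyosin and a calponin of non-muscle cells, were the lower members, at log2 fold changes of -0.58 ± 0.16 and -0.52 ± 0.16 (SE). Tpm4 lost its call without P60, and Cnn3 without P14, without P28 or without P60.

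The promoters of this list are shown because most of its members were higher in smooth muscle. RefSeq (GRCm38.p6) gives a stretch from 250 bases before to 50 after a start site for 32 of the members outside the gate, and 6 of these genes (18.8%) hold at least 1 CArG box there. The CArG box, the motif that serum response factor binds, was searched as CC, then 6 bases that are A or T, then GG, a form that reads alike on both strands. No other motif was searched. It occurs in 1.63% of all 32851 promoters of the table, in 1.83% of the tested genes found there, in 3.77% of the genes higher in smooth muscle (29 of 770) and in 0.919% of those lower (6 of 653). The genes are Myl9, Vcl, Filip1l, Cnn2, Myl6 and Ldb3. Filip1l and Myl6 each had another promoter in the table that held no box, and for Filip1l the promoter with the box is printed. Acta2 and Cnn1 had no exact match in this window, and near matches were not searched. Tagln and Myh11 had no promoter in the table. The promoters of Myl9, Vcl, Filip1l and Cnn2, all called higher, are printed 5′ to 3′ on their own strand, which is the plus strand for each, with the box in capitals.
Myl9, chr2:156775214-156775513: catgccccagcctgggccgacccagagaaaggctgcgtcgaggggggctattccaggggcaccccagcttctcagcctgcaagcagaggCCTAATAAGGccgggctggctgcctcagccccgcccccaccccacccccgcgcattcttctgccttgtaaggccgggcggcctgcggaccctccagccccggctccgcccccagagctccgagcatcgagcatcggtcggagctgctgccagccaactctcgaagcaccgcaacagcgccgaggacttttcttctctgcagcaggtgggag
Vcl, chr14:20929148-20929447: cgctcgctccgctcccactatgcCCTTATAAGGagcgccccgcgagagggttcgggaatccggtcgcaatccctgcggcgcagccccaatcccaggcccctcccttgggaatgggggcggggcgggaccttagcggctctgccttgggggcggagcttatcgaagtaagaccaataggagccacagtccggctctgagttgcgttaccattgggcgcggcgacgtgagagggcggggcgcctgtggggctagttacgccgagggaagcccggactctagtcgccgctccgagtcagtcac
Filip1l, chr16:57548992-57549291: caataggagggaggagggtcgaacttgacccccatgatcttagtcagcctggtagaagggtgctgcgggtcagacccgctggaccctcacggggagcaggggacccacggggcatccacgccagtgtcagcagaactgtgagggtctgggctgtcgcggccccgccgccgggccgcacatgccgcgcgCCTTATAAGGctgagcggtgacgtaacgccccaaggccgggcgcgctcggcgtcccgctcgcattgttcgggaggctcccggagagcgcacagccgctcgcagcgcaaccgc
Cnn2, chr10:79988350-79988649: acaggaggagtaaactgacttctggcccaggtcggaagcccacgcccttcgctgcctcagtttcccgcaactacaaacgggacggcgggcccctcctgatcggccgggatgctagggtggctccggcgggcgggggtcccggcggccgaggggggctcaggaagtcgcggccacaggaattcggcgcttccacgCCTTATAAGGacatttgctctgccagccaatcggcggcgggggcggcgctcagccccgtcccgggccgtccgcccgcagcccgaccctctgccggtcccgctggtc

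The boxes start 161, 227, 62 and 56 bases before the start site in the order printed. Myl9, the regulatory myosin light chain, was at 4892, 5495, 4686 and 5798 CPM in smooth muscle from P7 to P60, against 1290, 879.4, 1286 and 1286 CPM in pericytes. Cnn2, calponin 2, was at 503.9, 366.4, 255.9 and 292.6 CPM, against 218.9, 173.8, 204.1 and 131.0 CPM. The ranges of neither gene overlapped. Their log2 fold changes were 2.37 ± 0.16 and 1.17 ± 0.18 (SE), that of Filip1l, a filamin A interacting protein, 0.90 ± 0.15, and that of Vcl, vinculin of the cell adhesions, 0.71 ± 0.19, with Vcl higher in 3 of 4 libraries. A match describes the letters in the window and is not a binding site.

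Calcium handling and ion channels came next. Of 27 tested members 16 were higher in smooth muscle and 1 was lower, with a median log2 fold change of 2.00. Pln, phospholamban, which restrains the calcium pump of the sarcoplasmic reticulum, was at 101.4, 487.7, 419.3 and 1019 CPM in smooth muscle from P7 to P60, against 0, 0.695, 0 and 0 CPM in pericytes. All smooth muscle sums lay above all pericyte sums. Only 1 UMI was seen in pericytes of these libraries against 1670 in smooth muscle, a ratio of 1528 with a counting interval of 273.9 to 60400. The fitted log2 fold change was 9.97 ± 0.36 (SE; edgeR adjusted p = 1.27e-09).

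The pump itself and the calcium store were also higher. Atp2a2, the pump, was at 510.5, 985.8, 812.1 and 842.2 CPM in smooth muscle, against 143.3, 253.7, 197.9 and 195.2 CPM in pericytes. Casq2, which buffers calcium inside the store, was at 170.2, 230.8, 224.6 and 188.0 CPM, against 2.61, 3.48, 3.09 and 7.14 CPM. Neither gene's ranges overlapped, with log2 fold changes of 2.21 ± 0.15 and 5.89 ± 0.28 (SE). Ryr2, a release channel of the store, had 187 UMIs in smooth muscle and none in pericytes of these libraries, at least 57.0-fold higher with 3 counts over the group as the floor. The sodium and calcium exchanger Slc8a1 was higher by 5.02 ± 0.36. The pore and the helper subunit of the large-conductance potassium channel, Kcnma1 and Kcnmb1, were higher by 4.52 ± 0.49 and 5.77 ± 0.60. Cacna1c, the pore of the L-type calcium channel, was at 91.6 to 140.8 CPM in smooth muscle and 83.4 to 129.9 CPM in pericytes and missed the threshold (edgeR adjusted p = 0.071). The lower member was Itpr2, a store release channel of the inositol trisphosphate kind, by -1.41 ± 0.38, a call lost without P14 and under DESeq2.

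**Figure D3:**
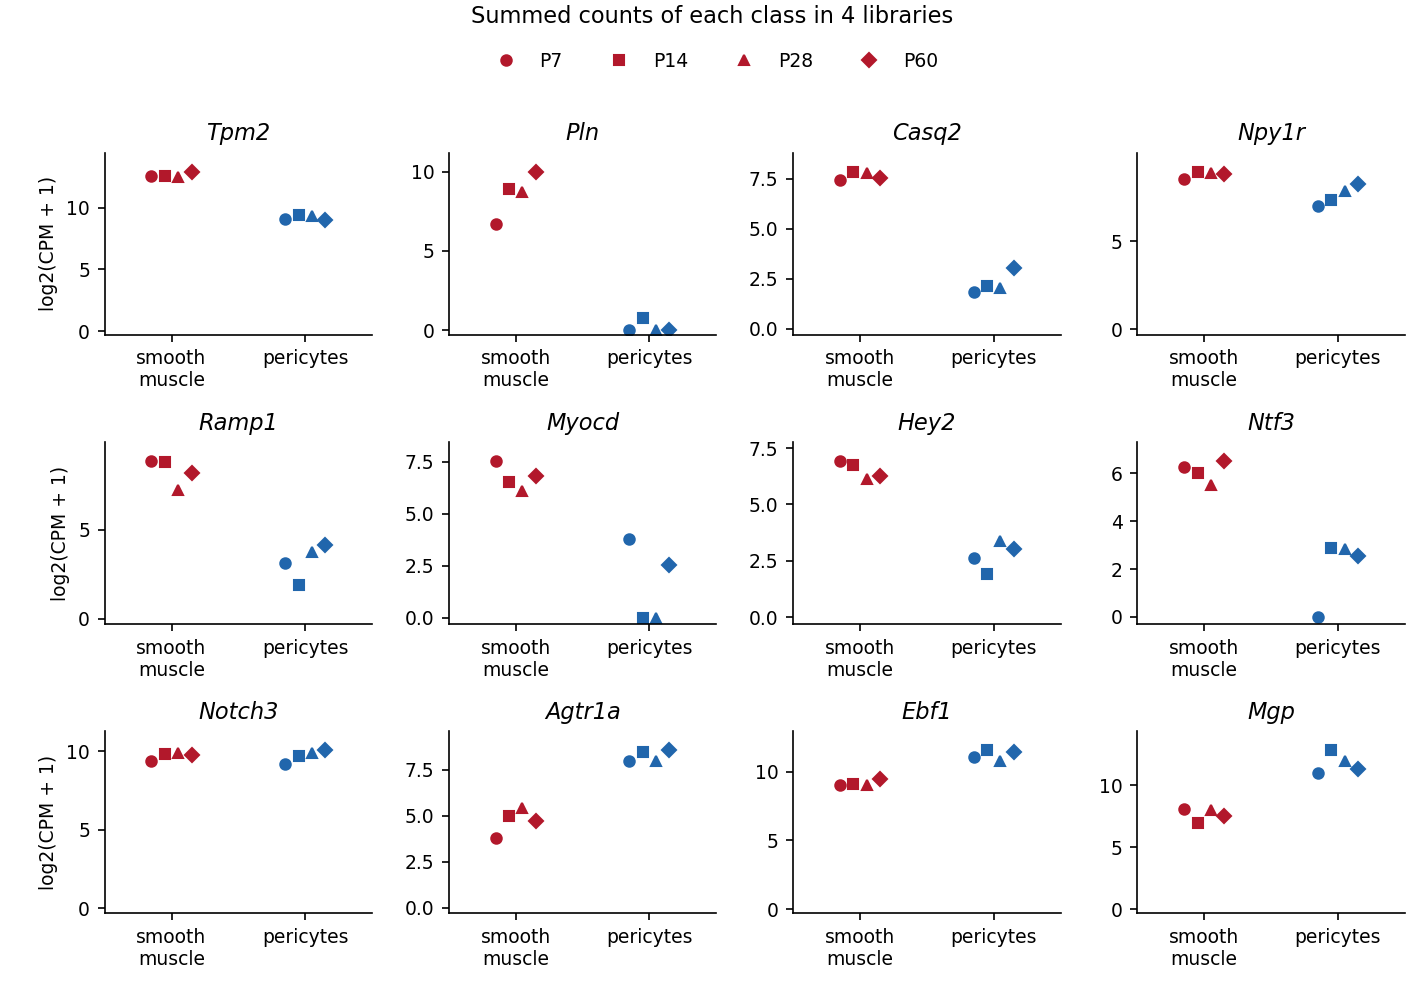
Level of 12 genes in the summed counts of smooth muscle cells (red, left) and pericytes (blue, right) of the libraries at P7, P14, P28 and P60, as log2(CPM + 1); each symbol is 1 library. Pln is at 0 in 3 of the 4 pericyte sums, while the ranges of Notch3 overlap.

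Receptors for constricting signals were split between the classes. Of 10 tested members, 3 were higher and 2 lower. Npy1r, the neuropeptide Y receptor through which sympathetic fibres constrict vessels, was at 366.5, 481.2, 462.5 and 435.0 CPM in smooth muscle from P7 to P60, against 125.1, 155.7, 222.7 and 295.2 CPM in pericytes. The ranges did not overlap, and the log2 fold change was 1.41 ± 0.19 (SE; edgeR adjusted p = 1.02e-04). It had a UMI in 67.2% to 93.2% of smooth muscle cells and in 37.8% to 56.5% of pericytes over these ages, and after thinning in 44.3% to 58.6% and 21.6% to 40.8%. P2rx1, the ATP-gated channel, was at 245.4, 48.3, 9.61 and 25.6 CPM, against 0, 0.695, 0 and 0 CPM, with 143 UMIs against 1 and a ratio of 130.9 (counting interval 23.1 to 5204). Tbxa2r, the thromboxane receptor, was higher by 2.86 ± 0.48.

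The angiotensin receptor lay on the other side. Agtr1a was at 13.1, 31.3, 42.1 and 25.6 CPM in smooth muscle, against 247.5, 349.7, 253.6 and 378.6 CPM in pericytes, with no overlap. Its log2 fold change was -3.20 ± 0.23 (SE; edgeR adjusted p = 3.53e-07). Ednrb, an endothelin receptor, was also lower, by -3.88 ± 0.70, a call lost without P60. Ednra, the endothelin receptor known from smooth muscle, was at 186.5 to 314.3 CPM in smooth muscle and 200.6 to 314.3 CPM in pericytes and did not pass.

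Relaxing signals were split likewise, with 6 of 16 members higher and 4 lower. Ramp1, the partner protein of the receptor for the sensory peptide CGRP, was at 467.9, 457.7, 150.2 and 290.4 CPM in smooth muscle, against 7.82, 2.78, 12.4 and 16.7 CPM in pericytes. The ranges did not overlap, and the log2 fold change was 5.72 ± 0.51 (SE; edgeR adjusted p = 2.31e-04). Pde3a, which breaks down cyclic AMP, was at 363.2, 700.2, 597.0 and 666.4 CPM, against 145.9, 212.0, 182.5 and 238.1 CPM, and was higher by 1.79 ± 0.15. Vipr2, a receptor for vasoactive intestinal peptide, had 68 UMIs against none, at least 20.7-fold higher. Prkg1, the kinase that cyclic GMP activates, was higher by 0.81 ± 0.17. The natriuretic peptide receptor Npr1 and the prostaglandin receptor Ptger2 were lower, by -2.96 ± 0.59 and -3.22 ± 0.74, on 10 and 4 UMIs in smooth muscle against 92 and 43 in pericytes.

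Rgs7bp, which anchors regulators of G protein signalling at the membrane, was at 415.6, 379.5, 403.6 and 333.8 CPM in smooth muscle, against 26.1, 2.78, 18.6 and 16.7 CPM in pericytes. All smooth muscle values lay above all pericyte values, and the log2 fold change was 5.17 ± 0.41 (SE; edgeR adjusted p = 5.04e-05). With the P7 and P14 libraries alone it did not pass the threshold. Rgs3, which switches off G protein signals, was lower by -1.57 ± 0.27.

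Notch signalling, which sets the mural fate in arteries, was higher in 3 of 11 tested members by edgeR and lower in none, with 5 and 0 at an unadjusted p under 0.05. Hey2, a target of the pathway, was at 121.1, 105.6, 68.5 and 74.5 CPM in smooth muscle from P7 to P60, against 5.21, 2.78, 9.28 and 7.14 CPM in pericytes. The ranges did not overlap, and the log2 fold change was 4.42 ± 0.36 (SE; edgeR adjusted p = 8.05e-07). Nrarp, a feedback inhibitor, was higher by 2.20 ± 0.49, a call lost without P28 or without P60. Jag1, a ligand, was higher by 1.04 ± 0.25 in 3 of 4 libraries, a call lost without P14. Notch3 itself was at 674.1, 895.8, 935.8 and 873.4 CPM, against 591.4, 850.2, 964.8 and 1076 CPM. Its ranges overlapped (log2 fold change 0.20 ± 0.14; edgeR adjusted p = 0.382).

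Of 25 tested transcription factors of mural cells 4 were higher and 7 lower. Myocd, myocardin, the coactivator that switches on contractile genes with serum response factor, was at 186.5, 92.6, 68.5 and 112.4 CPM in smooth muscle, against 13, 0, 0 and 4.76 CPM in pericytes. The log2 fold change was 5.38 ± 0.48 (SE; edgeR adjusted p = 1.01e-05), with no overlap. Srf, serum response factor, was at 9.82 to 28.8 CPM in smooth muscle and 5.21 to 15.5 CPM in pericytes and missed the threshold (edgeR adjusted p = 0.062). Mef2c was higher by 1.63 ± 0.21. Ebf1, a factor needed for pericyte commitment in mice, was at 533.4, 560.7, 519.0 and 699.8 CPM, against 2110, 3007, 1800 and 2810 CPM, and was lower by -1.83 ± 0.15. Pparg, the lipid-sensing receptor, was lower by -4.00 ± 0.49 on 13 UMIs against 357.

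**Figure D4:**
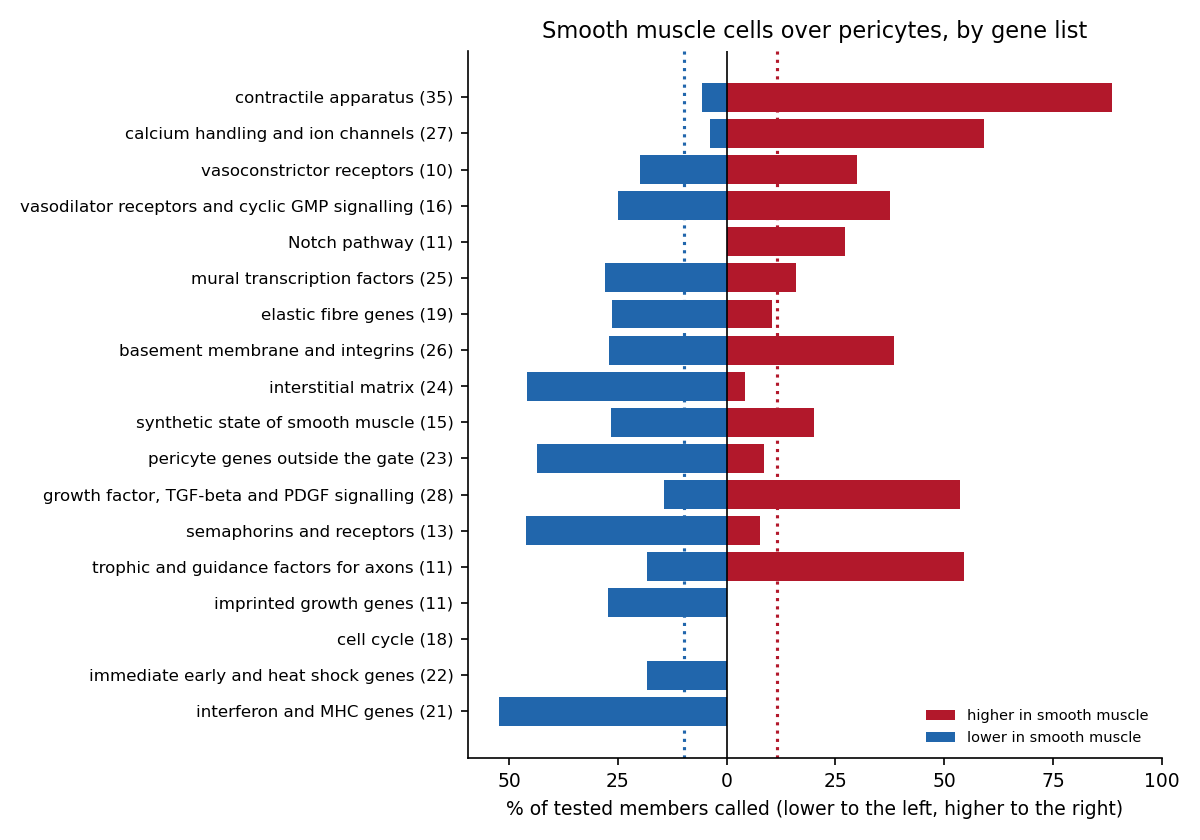
Percentage of the tested members of 18 gene lists that were higher (red, right) or lower (blue, left) in smooth muscle cells than in pericytes, by edgeR at an adjusted p under 0.05; the number tested stands in parentheses. Dotted lines mark the same percentages over all genes tested, 11.6% and 9.67%; the contractile list, with 31 of 35 higher, stands farthest to the right.

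Of 24 tested genes of the interstitial matrix 11 were lower and 1 higher in smooth muscle, with a median log2 fold change of -0.90. With the P7 and P14 libraries alone 3 were lower and 3 higher. The higher one was Sparcl1, an anti-adhesive matrix protein, at 2827, 4127, 3084 and 4467 CPM, against 471.6, 1255, 1092 and 1262 CPM in pericytes. Its relative Sparc ran opposite, at 3806, 2556, 3302 and 2358 CPM, against 6045, 7521, 9314 and 6322 CPM. Neither pair of ranges overlapped, with log2 fold changes of 2.12 ± 0.18 and -1.07 ± 0.16 (SE). The fibroblast markers, some of them in this list, were also higher in pericytes in every library, as given above, and their part in these calls was not tested.

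Basement membrane genes and integrins had 10 of 26 members higher and 7 lower. Col4a5 and Col4a6, the collagen chains of muscle basement membrane, were higher by 3.94 ± 0.48 and 4.60 ± 0.83. Col4a1 and Col4a2, the chains found in most basement membranes, were lower by -0.65 ± 0.14 and -0.70 ± 0.13. Col4a5 was at 98.2, 168.2, 180.2 and 138.0 CPM in smooth muscle, against 7.82, 2.78, 21.7 and 26.2 CPM in pericytes, without overlap. Nid1, nidogen, was at 160.3, 105.6, 139.4 and 54.5 CPM, against 429.9, 586.0, 392.7 and 271.4 CPM, and was lower by -1.71 ± 0.20.

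Mgp, an inhibitor of calcification, was at 281.4, 122.6, 265.5 and 186.9 CPM in smooth muscle, against 2079, 7282, 4011 and 2524 CPM in pericytes. All pericyte values lay above, and the log2 fold change was -3.87 ± 0.60 (SE; edgeR adjusted p = 0.016), a call lost without P7 or without P60. Elastic fibre genes had 2 of 19 tested members higher and 5 lower. Of the 15 tested genes tied to the synthetic, less contractile state of smooth muscle, 3 were higher and 4 lower. Myh9, the non-muscle myosin, was lower by -1.85 ± 0.20 and Cd44, a hyaluronan receptor, by -2.36 ± 0.46. Lgals3, a lectin, was higher by 2.21 ± 0.49.

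Of 23 tested genes known from pericytes beyond the gate 10 were lower, 2 higher and 11 not called. Pericytes were chosen by Kcnj8, Abcc9 and Rgs5, and the direction of this list is not independent of that choice. Steap4 was lower by -4.98 ± 0.36 and Colec11, a secreted lectin, by -4.52 ± 0.35. Pdgfrb was at 258.5, 541.1, 401.2 and 421.7 CPM in smooth muscle, against 1271, 1202, 943.2 and 1257 CPM in pericytes, lower by -1.32 ± 0.18 without overlap. Cspg4, the NG2 proteoglycan often used to stain pericytes, was higher, at 274.9, 365.1, 337.6 and 358.3 CPM, against 216.3, 197.4, 188.6 and 250 CPM. Its log2 fold change was 0.88 ± 0.16 (SE; edgeR adjusted p = 0.001). The call for Cspg4 was lost with the channel genes allowed in smooth muscle cells and with the P7 and P14 libraries alone. With the channel genes allowed, Colec11 was no longer lower, at a log2 fold change of 0.20.

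Growth factor genes had 15 of 28 tested members higher and 4 lower. Igfbp4, which binds insulin-like growth factors, was at 697.0, 765.4, 708.8 and 962.4 CPM in smooth muscle, against 294.4, 174.5, 269.0 and 328.6 CPM in pericytes. Tgfb3 and Tgfb2, ligands of the TGF-beta family, were higher by 2.13 ± 0.20 and 1.64 ± 0.18. The ranges of Igfbp4 did not overlap, with a log2 fold change of 1.81 ± 0.17 (SE; edgeR adjusted p = 3.08e-06). Fgfr1, a fibroblast growth factor receptor, was higher by 3.04 ± 0.30. Eng, a TGF-beta coreceptor, was lower by -1.40 ± 0.22.

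Factors known to act on axons were higher in 6 of 11 tested members and lower in 2. Ntf3, neurotrophin 3, was at 75.3, 63.9, 44.5 and 91.2 CPM in smooth muscle from P7 to P60, against 0, 6.26, 6.19 and 4.76 CPM in pericytes. The ranges did not overlap, and the log2 fold change was 3.96 ± 0.39 (SE; edgeR adjusted p = 5.03e-06). It had a UMI in 16.3% to 41.9% of smooth muscle cells and in 0% to 3.88% of pericytes, and after thinning in 7.44% to 16.1% and 0% to 1.21%. Ntn4, a netrin, was higher by 3.55 ± 0.28 and Efnb2, the ephrin of arteries, by 2.87 ± 0.32. Cxcl12, a chemokine that guides cells and axons, was lower by -1.22 ± 0.20.

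Semaphorins and their receptors, the family named in the study's title, had 1 of 13 tested members higher and 6 lower. Sema3f was the higher one, at 29.5, 26.1, 55.3 and 57.9 CPM in smooth muscle, against 5.21, 0.695, 0 and 0 CPM in pericytes. All smooth muscle values lay above, and the log2 fold change was 4.92 ± 0.56 (SE; edgeR adjusted p = 2.04e-05). Sema3b was at 26.2, 2.61, 16.8 and 7.79 CPM, against 26.1, 6.26, 24.7 and 7.14 CPM, with overlapping ranges and no call (edgeR adjusted p = 0.876). Sema3a had no UMI in either class, and Sema3c, Sema3d, Sema3e and Sema3g were too sparse to be tested. The receptors Nrp1 and Nrp2 were lower by -2.69 ± 0.36 and -2.53 ± 0.29.

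The remaining 4 lists held no member called higher by edgeR, with 0 to 2 each at an unadjusted p under 0.05. Interferon and MHC genes were lower in 11 of 21, among them Ifitm3, an antiviral membrane protein, at 288.0, 358.6, 698.0 and 458.4 CPM, against 1146, 1452, 2227 and 2145 CPM in pericytes. Immediate early genes were lower in 4 of 22, and in 0 of 21 with P7 and P14 alone. Imprinted growth genes were lower in 3 of 11, led by Dlk1 at -3.35 ± 0.57. Of 18 cell cycle genes 0 passed in edgeR and 0 in DESeq2, with 2 lower at an unadjusted p under 0.05 in edgeR, and 1 was lower without P14 or with the channel genes allowed.

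The genes with the largest positive changes included several that pericytes lacked. Actg2, the enteric smooth muscle actin, had 206 UMIs in smooth muscle of the 4 libraries and none in pericytes, at least 62.8-fold higher, a call that DESeq2 did not make. Of these UMIs 133 were from P7 and 65 from P14, and the gene was not tested without either of these libraries. Reads of the actin genes are hard to tell apart, so its level is uncertain. Sh3bgr, Xirp1 (an actin-binding repeat protein of striated muscle) and Rergl had 322, 259 and 239 UMIs and none in pericytes. Olfr78, an olfactory-type receptor also known from vessels and the carotid body, was at 42.5, 142.1, 149.0 and 194.7 CPM, against 0, 0, 0 and 2.38 CPM. It had 421 UMIs against 1, a ratio of 385.2 with a counting interval of 68.8 to 15250. Dtna, a dystrobrevin of the membrane skeleton, had 167 UMIs against none.

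The most negative changes were in genes that smooth muscle cells lacked or nearly lacked. Fst, follistatin, which binds activins, was at 3.27, 3.91, 10.8 and 5.56 CPM in smooth muscle, against 125.1, 926.7, 318.5 and 559.5 CPM in pericytes. The ranges lay apart, and the log2 fold change was -6.06 ± 0.37 (SE; edgeR adjusted p = 7.76e-07). Pericytes of the 4 libraries had 43 UMIs of the chemokine receptor Cxcr4 and 56 of the hormone stanniocalcin 1 (Stc1), and smooth muscle none, at least 15.7-fold and 20.4-fold lower. Tmem273 and Slc4a11, a transporter, had 1 UMI each in smooth muscle against 187 and 117. With the channel genes allowed, 28 of the 123 genes chosen for this comparison lost their calls, among them Fst, Cxcr4, Ednrb, Igfbp4, Cxcl12, Dlk1, Tpm4, Cnn3 and Itpr2. With P7 and P14 alone 27 did, among them Ednrb, Nrarp, Mgp and Cd44.

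Between ages, the P60 library was compared with P14, the earliest library with at least 50 smooth muscle cells from the same software version. A gene was counted when its CPM ratio was at least 2 or at most 1/2 with an exact 95% interval off 1, among 6839 genes with at least 30 UMIs over both. Higher at P60 were 267 genes (3.9% of those compared) and lower 476 (6.96%). There is no test, since each age is 1 library, and the intervals cover counting error only. A median-of-ratios scaling, which moves all ratios by 0.17 on the log2 scale, gave 385 higher and 292 lower.

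Of 12 elastic fibre genes compared 3 were lower at P60 and 1 higher. Eln, elastin, was at 24.7, 12780, 1910, 463.7 and 359.4 CPM from P0 to P60, so the P7 library stood far above the rest and P0 rests on 6 cells. The P7 counts came from Cell Ranger 7.0.0, those of the other ages from 5.0.1. At P7 93.1% of smooth muscle cells had a Xist UMI, and the part of either in the P7 level was not tested. The P60 to P14 ratio of Eln was 0.188 (interval 0.166 to 0.212), 0.179 over cells without Xist and 0.775 against P28. Pericytes had 41.0, 101.6, 107.1, 269.0 and 61.9 CPM. Eln had a UMI in 86.2%, 76.6%, 43.6% and 49.6% of smooth muscle cells from P7 to P60, and in 77.5%, 62.2%, 28.4% and 25.4% after thinning. In pericytes the shares were 15.9%, 35.8%, 17.7% and 17.4%. Over pericytes its mean change was 3.82 ± 1.45 on the log2 scale and was not called (edgeR adjusted p = 0.199), higher in 4 of 4 libraries. Fbn1, fibrillin, was at 26.7 CPM at P60 and 109.5 CPM at P14, a ratio of 0.244.

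Basement membrane genes were lower at P60 in 8 of 23 members compared and higher in none. Col4a1 was at 831.1 CPM at P60 and 1721 CPM at P14, and Col4a2 at 466.2 and 1221 CPM. Their ratios were 0.483 (0.441 to 0.529) and 0.382 (0.340 to 0.429), close to the 0.358 and 0.365 of pericytes. For Col4a1 the ratio was 0.604 when all 4 muscle genes were required and 1.07 against P28, and for Col4a2 0.866 against P28. Itga4, an integrin subunit, was at 16.7 CPM at P60 and 189.1 CPM at P14, a ratio of 0.088, whereas pericytes had 26.2 and 9.73 CPM.

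Contractile genes went much as all genes did, with 31 of 35 not counted, 2 higher and 2 lower. Of all 6839 genes compared 6096 were not counted, 3.9% were higher and 6.96% lower. Des was at 148.0, 255.2, 444.7, 977.9 and 1148 CPM from P0 to P60, and its P60 to P14 ratio was 2.58 (2.28 to 2.93), 2.66 over cells without Xist and 1.17 against P28. Synm was the other higher one, at 2.08 (1.70 to 2.54), or 1.99 with all 4 muscle genes and 1.71 against P28. Actg2 ran down, at 493.3, 435.2, 84.8, 7.21 and 2.23 CPM from P0 to P60. It had 2 UMIs at P60 and 65 at P14, a ratio of 0.026 (0.003 to 0.099). Tpm4 was the other lower one, at 115.7 CPM at P60 and 301.2 CPM at P14.

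Calcium genes had 2 of 26 members higher and 3 lower, and none lower under median-of-ratios scaling, with all 4 muscle genes or at a minimum of 100 UMIs. Pln was at 0, 101.4, 487.7, 419.3 and 1019 CPM from P0 to P60, with a P60 to P14 ratio of 2.09 (1.85 to 2.36), 2.21 over cells without Xist and 1.51 with all 4 muscle genes. It had a UMI in 13.8%, 62.5%, 64.5% and 88.0% of smooth muscle cells from P7 to P60, and in 11.0%, 45.4%, 45.7% and 76.5% after thinning, against 0% to 0.431% of pericytes. The low share at P7 and the high one at P60 stand out, and P14 and P28 were alike. Kcnmb1 was at 93.5 CPM at P60 and 32.6 CPM at P14, a ratio of 2.87 (1.82 to 4.68) that was 1.85 against P28. Rgs4, a regulator of G protein signalling, was at 49.3, 98.2, 425.1, 648.7 and 875.6 CPM from P0 to P60, with a ratio of 2.06 (1.81 to 2.35) that was 1.88 over cells without Xist and 1.35 against P28.

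**Figure D5:**
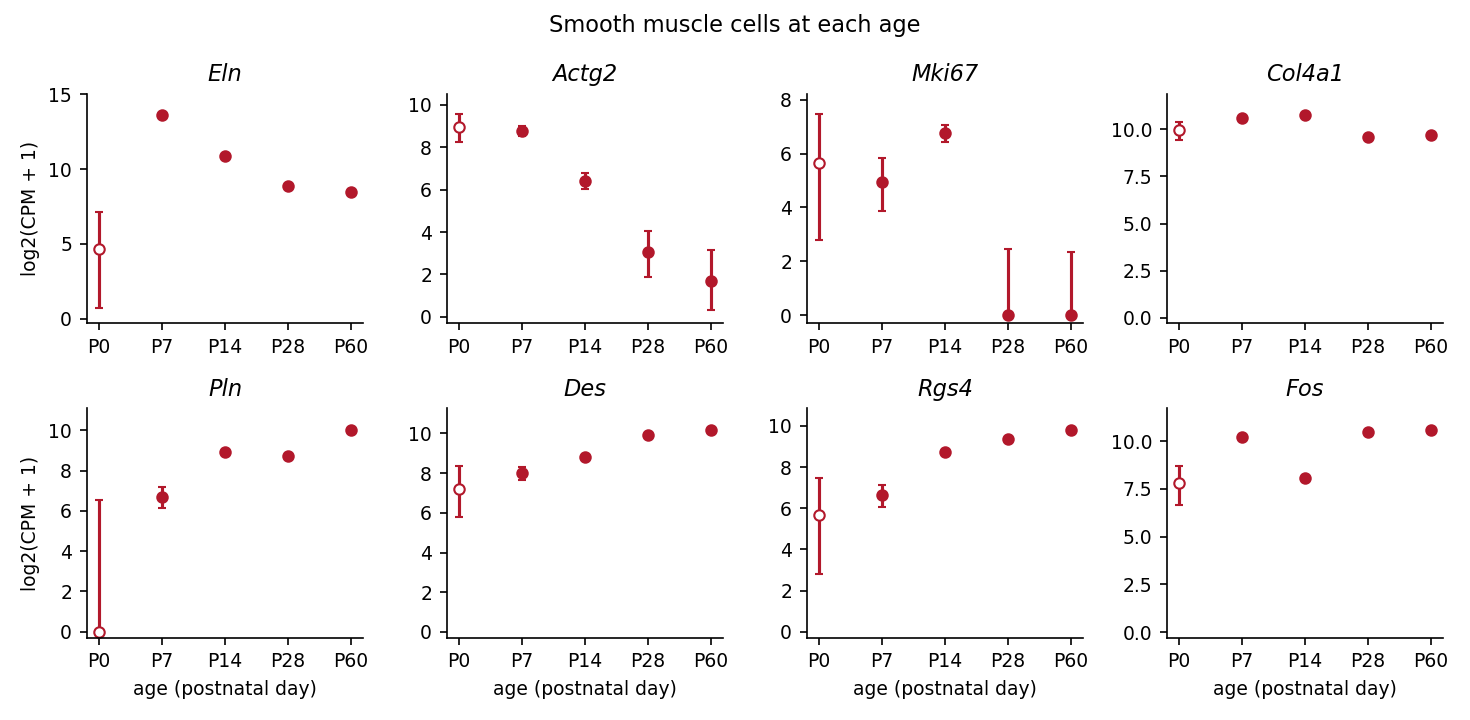
Level of 8 genes in the summed counts of smooth muscle cells at each age, as log2(CPM + 1), with exact 95% Poisson intervals that cover counting error only. Open symbols mark P0, which rests on 6 cells; Eln is highest at P7 (12780 CPM), while Pln is highest at P60 (1019 CPM).

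Immediate early and heat shock genes, which dissociation itself can switch on, were higher at P60 in 16 of 22 members and lower in none. Fos was at 222.0, 1204, 264.7, 1428 and 1542 CPM from P0 to P60, so P14 stood low beside P7, P28 and P60. Its P60 to P14 ratio was 5.83 (5.02 to 6.78) in smooth muscle and 5.54 (5.03 to 6.11) in pericytes, and 1.08 in smooth muscle against P28. Atf3, a stress-response factor, was at 423.9 CPM at P60 and 10.4 CPM at P14, a ratio of 40.6 (20.4 to 94.8). It was 24.5 with all 4 muscle genes, 160.2 over cells without Xist and 1.71 against P28. Against P28 none of the 22 was higher. The mitochondrial share was also higher at P60 than at P14, as given above, and its part was not tested.

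Cell cycle genes were lower at P60 in 6 of 9 members compared. Mki67 and Top2a, made in dividing cells, had 83 and 81 UMIs at P14 and none at P60, at least 32.4-fold and 31.6-fold lower. Over cells without Xist, only 3 members reached 30 UMIs and none was lower. Imprinted growth genes were lower in 4 of 9. Meg3 was at 1949, 759.2, 413.4, 367.6 and 148.0 CPM from P0 to P60, a P60 to P14 ratio of 0.358 (0.290 to 0.440), while pericytes were at 1379 CPM at P60 and 1418 CPM at P14. With the channel genes allowed the ratio of Meg3 was 0.963. H19 had 100 UMIs at P14 and none at P60, at least 39.1-fold lower.

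Of 20 interstitial matrix genes compared 6 were higher at P60 and 2 lower. With all 4 muscle genes required 3 of 14 were higher and 1 lower, and against P28 2 of 21 were higher and 4 lower. The lower members were Col14a1, a collagen, at a ratio of 0.025 on 1 UMI at P60 and 34 at P14, and Fn1, fibronectin, at 0.477 (0.312 to 0.719), or 0.592 over cells without Xist. Dcn, decorin, was at 0, 98.2, 74.3, 792.9 and 679.8 CPM from P0 to P60, and at 44.3, 588.8, 101.5, 1834 and 957.2 CPM in pericytes. Its P60 to P14 ratio was 9.15 (6.96 to 12.2) in smooth muscle and 9.43 (7.78 to 11.5) in pericytes. The 12 fibroblast markers summed to 1796 CPM in smooth muscle at P60 and 796.7 CPM at P14, and their part in this was not tested. When all 4 muscle genes were required, the ratio of Dcn was 1.85, and against P28 it was 0.857. Sfrp4, a secreted Wnt inhibitor, had 119 UMIs at P60 and 1 at P14, a ratio of 101.5 with a counting interval of 17.9 to 4044, and was at 97.3 CPM at P28. Serpinf1, an anti-angiogenic factor, was at 117.9 CPM at P60 and 3.91 CPM at P14.

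Of 8 trophic factors compared 1 was higher at P60 and 1 lower, and 0 of 9 relaxing genes and 0 of 11 Notch genes were counted. Among constrictor receptors 2 of 9 were lower, Avpr1a, the vasopressin receptor, at 0.341 (0.159 to 0.686) and P2ry14, a receptor for sugar nucleotides, at 0.447 (0.195 to 0.970). P2ry14 was no longer counted over cells with at least 2000 UMIs (0.495), under median-of-ratios scaling (0.503) or with the channel genes allowed (0.756).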

How the data were processed

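The authors deposited UMI counts per gene and barcode, limited to called cells, and per the file headers the counts came from Cell Ranger 5.0.1 (7.0.0 at P7), and the submitters' processing notes name Seurat and the build mm9. The sources used here do not give aligner settings, annotation or the treatment of intronic reads, so counts of overlapping genes and near copies are uncertain. Genes were matched by identifier (52081 shared between both versions). The ganglion library was not used. Libraries held 60763221 to 101441907 UMIs.

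From these counts, cells were gated as described in the report. Classes were compared with edgeR 4.0.16 (quasi-likelihood test, TMM, filterByExpr, library as block, libraries with at least 20 cells per class, Benjamini-Hochberg). The 2 class sums of each library share their pooled animals, so the library pairs them. SE is the size of the log2 fold change divided by the square root of the test's F statistic. DESeq2 1.42.0, other scalings, filters and gates were alternatives. P-values measure the spread between 4 libraries of different ages. Shares, levels and ratios have exact 95% intervals (Clopper-Pearson, Poisson, conditional) for counting error only, and 3 counts stand as the floor for 0. Doublets were scored with Scrublet in scanpy 1.11.5. They were left in for the values reported and removed in an alternative (where its threshold marked under 0.5%, barcodes at or above the score that bounds the top 8% were removed, with ties 894 of 9927 at P0). The code was tested on simulated data, where the edgeR fit called 46 of 96 genes changed 2-fold (47.9%) and 89 of 90 changed 4-fold. It also called 11 unchanged genes. A gene that was not called can therefore still differ between the classes.

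The members, the 19 gene lists and the tests were chosen with earlier results of these data known. Genes named are the 10 largest and 10 smallest changes called alike in every library, up to 4 called members per list and direction, and between ages the 8 largest and smallest with at least 100 UMIs and up to 3 per list and direction. Gate genes, further list members, actins and class 3 semaphorins are named as a description. The Xist values and the alternatives on Xist, library totals, the channel genes and P28 were added after seeing the data. Promoters came from RefSeq, GRCm38.p6, whose build differs from the one named in the notes, and were matched by symbol. Results for 1 gene list and for some genes are not reported here.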

Additional observations from a re-analysis of the deposited data

Results flagged for a closer look

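Among the 64 genes chosen for the comparison of P60 with P14, 7 were flagged for moving in opposite directions in smooth muscle cells and in pericytes. Each had counting intervals off 1 on both sides. These differences were not tested, since each age is 1 library. The 7 are not a full list: Itga4, given above, also ran opposite and was not flagged, and the share over all genes compared is not given. Col1a1, a collagen, had a P60 to P14 ratio of 2.04 in smooth muscle and 0.455 in pericytes, and Ecm2, a matrix protein, 2.47 and 0.790. The other 5 were lower at P60 in smooth muscle and higher in pericytes. Nrp1, a semaphorin receptor, had ratios of 0.339 and 1.80, and Angpt1, the vessel-stabilising ligand of Tek, 0.230 and 3.65. Trpc6, a cation channel, had 0.455 and 2.43, P2ry14 0.447 and 3.97, and Bst2, an interferon-induced protein, 0.394 and 1.58. With the channel genes allowed in smooth muscle cells, the smooth muscle ratios were 1.30 for Col1a1, 1.33 for Ecm2, 1.01 for Nrp1, 0.837 for Angpt1, 0.645 for Trpc6, 0.756 for P2ry14 and 1.08 for Bst2, so none reached the bounds of 2 or 1/2. Col1a1 was at 0.536 with all 4 muscle genes. Angpt1 rests on 7 UMIs at P60 and 26 at P14 in smooth muscle.

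Epas1, the hypoxia-inducible factor 2 alpha, changed direction between ages. Smooth muscle over pericytes was 1.84 at P28 (interval 1.53 to 2.24) and 0.651 at P7 (0.483 to 0.871), and the difference between ages was not tested. Its call over all 4 libraries was lost without P14, without P28 or without P60. The call was also lost under library totals, RLE scaling, DESeq2 and no replicate block, with all 4 muscle genes, and with P7 and P14 alone.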

How the results depend on the processing

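The 2 class sums of each library share their animals, which is why the library served as replicate block. With no replicate block, 607 genes were higher and 451 lower in smooth muscle than in pericytes. Leaving out 1 library at a time gave 680 to 1075 higher and 558 to 974 lower, and P0 was in no fit, so leaving it out was not run. DESeq2 called 562 lower, library totals 1442, and the P7 and P14 libraries alone 494 higher and 329 lower. Of the 123 genes named there, none reversed under these alternatives except Colec11 (0.20 with the channel genes allowed). Requiring all 4 muscle genes left 3 libraries. Over cells without Xist, Sfrp4 and Mfap4 had 0 UMIs at P14 and no ratio.

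Between ages, requiring all 4 muscle genes gave 157 higher and 288 lower at P60, a minimum of 100 UMIs 96 and 93, median-of-ratios scaling 292 lower, and P28 as the earlier age 281 lower. Col1a1 turned to 0.536 with all 4 muscle genes, and Nrp1 to 1.01 and Bst2 to 1.08 with the channel genes allowed. Against P28 the ratios turned to 0.857 for Dcn, 0.960 for Mt1, 0.431 for Klf4, 1.07 for Col4a1, 0.929 for Col1a1, 0.484 for Higd1b and 0.901 for Jun. The cause of these turns was not tested.

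The smooth muscle share of mural cells from P0 to P60 was 1.33%, 19.1%, 14.2%, 10.3% and 17.6% with all 4 muscle genes required of smooth muscle cells alone. With the channel genes allowed the share was 33.5%, 57.7%, 49.5%, 71.6% and 70.6%. It was 42.8% at P28 without the Rgs5 requirement and 12.1% at P7 over cells without Xist. Depth limits P0, with 40544 UMIs in 6 cells.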
